A study of Bos taurus with 16 samples.

Results

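Single bovine blastocysts that met the RARγ inhibitor LY2955303 (LY) from the 16-cell stage (cell16_LY, 2 libraries) were compared with blastocysts that met it from the 2-cell stage (cell2_LY, 2 libraries). These are 4 of the 16 libraries of the series, chosen by their labels, and all 14529 genes with enough reads were compared. The labels call all of them wild type, and all were grown from slaughterhouse oocytes fertilized in vitro, in a culture medium with LIF, FGF2 and IGF1. They were collected by day 8. Another 2 blastocysts are labelled as the DMSO control of LY (LY_DMSO) and are taken here as the vehicle group of both. The labels give no LY concentration for cell2_LY and cell16_LY, and nothing says whether embryos of a group shared a fertilization or a culture drop, so the spread between 2 blastocysts is the only error available. A blastocyst was sequenced whole, so fewer cells of a type and less RNA per cell cannot be told apart.

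Retinoic acid receptors are nuclear receptors that sit on DNA together with retinoid X receptors and switch target genes when retinoic acid binds. LY2955303 blocks the γ receptor. A blastocyst at this age consists of an outer trophectoderm, which pumps fluid into a cavity and later forms the placenta, and an inner cell mass, which splits into epiblast and hypoblast. Cleaving mammalian embryos live largely on pyruvate and lactate, and glucose use through glycolysis becomes prominent at compaction and blastocyst formation, the window that opens around the 16-cell stage. The comparison therefore asks how the time of first exposure to LY relates to the RNA of the blastocyst. Since all embryos were collected by day 8, an earlier start also meant a longer exposure, and start and length cannot be told apart.

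In glycolysis TPI1, PGK1, GAPDH, ENO1, LDHA and LDHB were called higher, with both cell16_LY blastocysts above either cell2_LY blastocyst. Such a lack of overlap alone does not set a gene apart, since 54.5% of all tested genes had it. Interferon tau genes and PAG11, products of the trophoblast, were also higher in cell16_LY. The trophectoderm factors GATA2 and CDX2, the desaturase FADS2, the cholesterol regulator SREBF2 and the adhesion protein ZYX were lower, while the cadherin CDH1, the actin-bundling PLS3 and HACD3 of the fatty acid list were higher. Most members of the trophectoderm, lipid, junction and actin lists were not called. No gene passed adjustment for the number of genes tested, so these are differences at an unadjusted threshold between 2 and 2 blastocysts.

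SMART-Seq copies the polyadenylated RNA of 1 embryo into cDNA and amplifies it. Between 11336091 and 17251815 reads lay on genes in the 4 LY blastocysts, and 16883427 and 17343140 in LY_DMSO. Levels are given as deposited, in FPKM, which scales the reads of a gene by its length and by the library size. Differences are in log2 of normalized counts plus 1, as cell16_LY minus cell2_LY, with the standard error (SE) of the limma fit. A gene is called when its unadjusted p is under 0.05 and its log2 difference is beyond 1 in either direction. The blastocyst cell2_LY replicate 1 stood apart: its library size in the FPKM was 1.23 times its reads on genes, against 0.949 to 1.04 in the other libraries, and it lay at -102 on the first principal component, with cell2_LY replicate 2 at -32.3 and the other 4 above 0, up to 88.9. The Spearman correlation across genes was 0.968 between the cell16_LY blastocysts and 0.935 between the cell2_LY blastocysts. The embryos also differed in their sex-chromosome reads. Over 5 Y genes, cell16_LY replicate 1 and LY_DMSO replicate 2 had 0 reads (a count of 0 allows up to 3, for counting error only), while the other 4 had between 2515 and 4176. Cell16_LY replicate 1 was thus the only one of the 4 LY blastocysts without them.

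The compared groups differed at 810 genes called higher in cell16_LY (5.58% of those tested) and 839 called lower (5.77%). Their median log2 difference was 1.35 and -1.45. In all, 2596 genes had an unadjusted p under 0.05. After Benjamini-Hochberg adjustment in limma 0 genes had a p under 0.05, the smallest adjusted p was 0.186, and voom on the recovered reads also gave 0, with 2464 genes at an unadjusted p under 0.05. The counts moved by over 1.5 times with single embryos. Without cell16_LY replicate 1 they were 409 higher and 408 lower, without cell2_LY replicate 1 they were 551 and 390, and without cell2_LY replicate 2 they were 1627 and 1289. When the total of gene reads served as library size, the counts were 421 higher and 1261 lower, since this moved the median of all genes from 0.04 to -0.18. With that scaling 75.0% of the called genes were lower, against 50.9% with the deposited scaling. The sign of each of the 1649 called genes was the same under every alternative that tested it. For most this was fixed beforehand where an embryo was left out. Of the called genes 1644 had groups that did not overlap, against 7922 (54.5%) of all tested genes, and dropping an embryo cannot turn their sign.

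Among named genes with the smallest p, those higher in cell16_LY came from heme synthesis, vesicle transport and the cytoskeleton, among others. SAAL1 measured 20.1 and 18.3 FPKM in cell16_LY, 3.67 and 4.60 in cell2_LY and 13.4 and 17.6 in LY_DMSO, a log2 difference of 2.21 ± 0.33 (SE). The zinc importer SLC39A10 measured 2.12 and 1.96 FPKM, 0.587 and 0.469, and 2.41 and 2.44 in the same order (1.95 ± 0.30). ALAS1, the first enzyme of heme synthesis, measured 79.7 and 87.1 FPKM, 31.6 and 29.1, and 46.8 and 47.5 (1.46 ± 0.24). In each of the 3 genes the cell2_LY pair was the lowest of the 6 embryos, and LY_DMSO was near cell16_LY for the first and for the zinc importer. The actin-binding genes CNN3 (2.09 ± 0.35) and TWF1 (1.98 ± 0.35), RAP1GDS1 (1.59 ± 0.27), which assists small GTPases, and COPB1 (1.67 ± 0.30), a coat subunit of Golgi vesicles, were called higher too. Of the uncharacterized loci, LOC112446470 (2.44 ± 0.42) and LOC514189 (1.37 ± 0.25) had the smallest p.

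The named genes lower in cell16_LY were led by a trophectoderm factor and by genes of actin, vesicles and autophagy. GATA2, a transcription factor of the trophectoderm, measured 15.3 and 12.4 FPKM in cell16_LY, 57.3 and 48.9 in cell2_LY and 18.2 and 9.71 in LY_DMSO (-1.94 ± 0.34). ATG9B, a membrane protein of autophagosome formation, measured 1.20 and 2.01 FPKM, 13.3 and 8.17, and 3.37 and 1.44 (-2.74 ± 0.49). Both cell2_LY embryos were above the other 4 at these genes. The same held for UBALD1 (-2.18 ± 0.39), MICALL2 (-1.97 ± 0.35), EVL (-1.61 ± 0.29) and ZYX (-1.71 ± 0.31), of which the latter 3 act on actin or junctions, for the transporter ABCC5 (-1.49 ± 0.28) and for COBLL1 (-1.44 ± 0.27). ZAR1L, a relative of the maternal-effect gene ZAR1, was low everywhere, at 0.176 and 0.254 FPKM in cell16_LY and 0.906 and 0.943 in cell2_LY (-2.11 ± 0.39). LOC112442568, annotated as a long noncoding RNA (-2.45 ± 0.35), and LOC112444863 (-1.83 ± 0.28) were the uncharacterized loci with the smallest p. Of these genes and those of the preceding paragraph, SLC39A10, ZAR1L and LOC112442568 were not called on log2(FPKM + 1), and all others were called under every alternative.

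**Figure D1:**
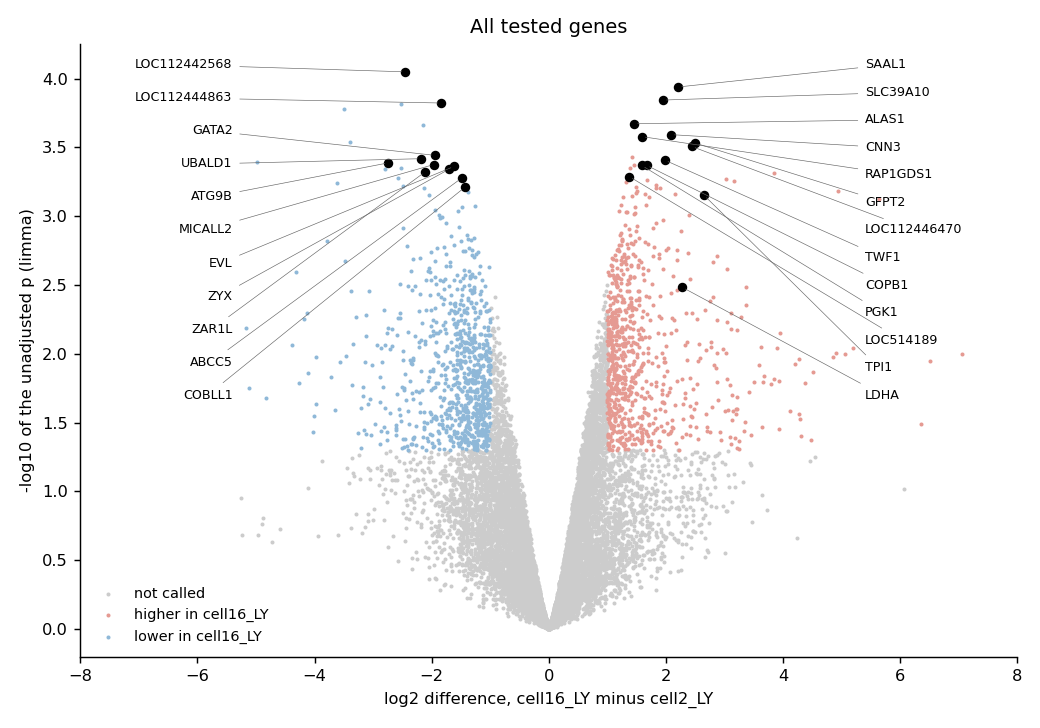
Log2 difference of cell16_LY minus cell2_LY (x) against the negative log10 of the unadjusted limma p (y) for 14529 genes. Red points are the 810 genes called higher, blue points the 839 called lower, grey points the others, and black points with names are genes chosen by rule and the 3 the study names, which lie at the top of both arms except LDHA.

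Glycolysis was tested at 22 of 24 listed genes, with 6 called higher and 1 called lower in cell16_LY, and a median log2 difference of 0.43 beside 0.04 over all genes. Over all genes 5.58% were called higher and 5.77% lower, and the counts of every list below are read beside these shares. The study singled out this pathway on these embryos, so the count is not independent evidence of its direction. Glucose carriers did not follow the enzymes: SLC2A1 measured 79.0 and 57.3 FPKM in cell16_LY and 67.5 and 58.5 in cell2_LY, and SLC2A3 252 and 221 against 190.1 and 312. Of the 9 genes of upper glycolysis 1 was called. This was TPI1 (chromosome 5, positions 103580104 to 103583461 in the deposited table, whose gene positions are those of RefSeq's ARS-UCD2.0 annotation for 98.8% of the matched genes), which interconverts the 3-carbon phosphates made from fructose. TPI1 measured 401 and 186 FPKM in cell16_LY, 70.4 and 26.8 in cell2_LY and 14.7 and 22.2 in LY_DMSO, a log2 difference of 2.65 ± 0.51. Both cell16_LY embryos lay above the other 4, and this was the largest log2 difference of the list.

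GPI, which turns glucose 6-phosphate into fructose 6-phosphate, measured 166.9 and 167.1 FPKM in cell16_LY against 87.0 and 86.4 in cell2_LY. With a log2 difference of 0.95 ± 0.24 it stayed just under the threshold of size. HK1 (9.36 and 8.72 FPKM against 6.77 and 4.20), PFKM (1.13 and 1.62 against 1.10 and 0.971), PFKP (0.910 and 0.585 against 0.417 and 0.0942), ALDOA (399 and 309 against 247 and 308) and ALDOC (19.3 and 9.75 against 4.91 and 7.15) did not overlap between the groups and were not called. A lack of overlap was common, at 54.5% of all tested genes, and at ALDOA it rested on 309 against 308 FPKM. HK2, the more abundant of the hexokinases tested, measured 18.2 and 17.7 against 18.6 and 19.5 FPKM. The liver-type phosphofructokinase PFKL, at 20.9 and 17.3 against 19.8 and 12.8 FPKM, overlapped. The enzymes that make and break fructose 2,6-bisphosphate, the main activator of phosphofructokinase, went the other way or overlapped. PFKFB3 was called lower, at 0.159 and 0.107 FPKM against 0.624 and 0.235 (-1.54 ± 0.55), PFKFB2 measured 0.570 and 0.760 against 1.34 and 1.08, and PFKFB4 2.50 and 6.69 against 6.37 and 3.27.

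Below the aldolase step, 3 of 5 tested genes were called higher, and the median of this lower part of the pathway was 1.26. GAPDH measured 3281 and 2634 FPKM in cell16_LY, 1070.3 and 1400.2 in cell2_LY and 1178 and 889 in LY_DMSO (1.26 ± 0.32). PGK1 (chromosome X, positions 74244892 to 74267571), which makes the first ATP of the pathway, measured 563 and 393, 143 and 172, and 252 and 211 (1.59 ± 0.29). ENO1, the enolase, measured 844 and 511, 273 and 228, and 315 and 221 (1.40 ± 0.34). In all 3 the cell16_LY pair was above the other 4 embryos. The cell2_LY pair overlapped LY_DMSO at GAPDH and ENO1 and lay below it at PGK1. PGAM1, at 547 and 446 against 334 and 378 FPKM, and PKM, at 156 and 153 against 145 and 111, were not called, and in LY_DMSO they reached 549 and 687 and 154 and 178.

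At the exit of the pathway, both lactate dehydrogenase subunits were called higher. LDHA (chromosome 29, positions 26290889 to 26302946), the muscle-type subunit, measured 429 and 180 FPKM in cell16_LY, 41.1 and 79.4 in cell2_LY and 61.5 and 163 in LY_DMSO (2.28 ± 0.56). LDHB measured 593 and 472, 209 and 273, and 530.1 and 641 (1.15 ± 0.28). LDHA was far higher in cell16_LY replicate 1 than in replicate 2, which was close to the higher LY_DMSO embryo, and LDHB in cell16_LY overlapped LY_DMSO. The lactate carrier SLC16A1 overlapped, at 138 and 107 against 76.8 and 115 FPKM. The adjusted p of TPI1 and PGK1 was 0.186 and that of LDHA 0.193 in limma, and all 3 were called under every alternative that held them. GAPDH was not called without cell16_LY replicate 1, LDHB without it or without cell2_LY replicate 1, and PFKFB3 without cell16_LY replicate 2 or cell2_LY replicate 1. Without cell16_LY replicate 1, 4 genes were called higher and 1 lower, and the median was 0.59. Leaving out any other embryo gave 6 or 7 higher and 0 or 1 lower, and the 4 embryos with Y reads alone gave 3 and 1. Summed over all 24 listed genes, tested or not, the list came to 7923 and 5899 FPKM in cell16_LY, 3014 and 3598 in cell2_LY and 3907 and 4084 in LY_DMSO.

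**Figure D2:**
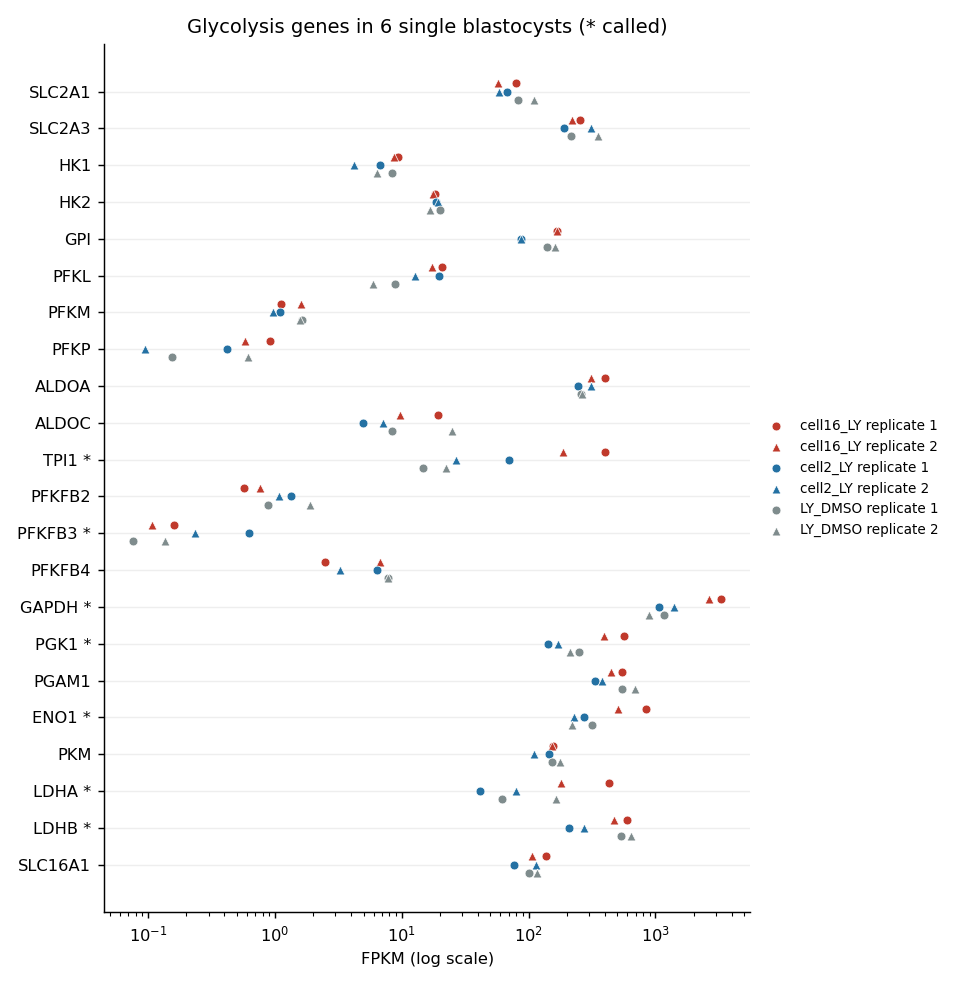
FPKM on a log scale (x) of the 22 tested glycolysis genes (y, from glucose carriers to lactate), with 1 point per blastocyst, red for cell16_LY, blue for cell2_LY and grey for LY_DMSO, circles for replicate 1 and triangles for replicate 2. A star marks the 7 called genes, and the red points stand clear of the blue and grey points at TPI1, GAPDH, PGK1 and ENO1.

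The pentose phosphate pathway, which branches from glucose 6-phosphate to make ribose and NADPH, had 0 of 7 genes called in limma and a median of 0.38. RPIA, at 124 and 139 against 89.7 and 84.6 FPKM, was the only one with an unadjusted p under 0.05, and voom called 0 as well, while 1 was called higher without cell2_LY replicate 2. RPE (25.0 and 20.0 against 10.9 and 17.8) and PGLS (34.9 and 35.2 against 28.0 and 30.6) were higher in both cell16_LY embryos, and TKT (84.5 and 122 against 130 and 157) was lower in both. Of all tested genes, 54.5% likewise did not overlap between the groups. PGD, at 175 and 315 against 182 and 154 FPKM, and TALDO1, at 152 and 126 against 125 and 152, overlapped. Sugar nucleotide synthesis, which turns sugar phosphates into the donors of protein glycosylation, had 5 of 17 called higher and 0 lower, with a median of 0.62. GFPT2, the entry enzyme of the hexosamine branch, measured 5.11 and 9.75 FPKM in cell16_LY, 1.58 and 0.956 in cell2_LY and 13.4 and 13.1 in LY_DMSO (2.50 ± 0.43). UGP2, which makes UDP-glucose, measured 244 and 205, 59.6 and 111, and 140.1 and 198 (1.46 ± 0.35). For GFPT2 the cell2_LY pair was lowest of the 6, with LY_DMSO above both LY groups. MPI, CMAS and UAP1 were the other called genes, and GALK1 had the lowest difference (-0.77, not called). Without either cell16_LY embryo 3 were called, without cell2_LY replicate 1 there were 2, and without cell2_LY replicate 2 there were 7.

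Pyruvate entry and the TCA cycle had 4 of 25 genes called higher and 2 lower, beside 5.58% and 5.77% of all genes, with a median of 0.54. PDK3, a kinase that shuts pyruvate dehydrogenase off, measured 42.4 and 23.8 FPKM in cell16_LY, 6.66 and 11.9 in cell2_LY and 14.7 and 47.9 in LY_DMSO (1.84 ± 0.56). DLD, the shared E3 subunit of pyruvate and oxoglutarate dehydrogenase, measured 336 and 334, 125 and 199.6, and 449 and 299.7 (1.09 ± 0.33). IDH3G and SUCLA2 were also called higher, OGDH, the E1 subunit of oxoglutarate dehydrogenase, was called lower (1.87 and 2.61 against 7.401 and 4.43 FPKM), and DLST had the lowest difference at -1.60, not called. PC, which feeds pyruvate into the cycle as oxaloacetate, measured 9.58 and 8.999 FPKM against 24.6 and 18.7, with 8.04 and 4.69 in LY_DMSO (-1.21 ± 0.33), and was called under every alternative. These counts moved with single embryos, to 2 higher and 1 lower without cell16_LY replicate 1, to 1 and 1 without cell2_LY replicate 1 and to 7 and 2 without cell2_LY replicate 2.

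Respiratory chain genes on nuclear chromosomes gave 0 of 72 calls in limma and by voom, with 5 at an unadjusted p under 0.05. Their median of 0.26 turned to -0.10 without cell2_LY replicate 1 and to -0.02 after quantile normalization. It was 0.59 without cell2_LY replicate 2. Of the 13 mitochondrial genes 3 were called higher. ND4L measured 725 and 732 FPKM in cell16_LY, 131 and 340 in cell2_LY and 749.6 and 711 in LY_DMSO (1.79 ± 0.41), and ND5 and ATP8 were the others. ND4L was called under every alternative, and it was the only one without cell16_LY replicate 1 or cell2_LY replicate 1. Of the proteins of the mitochondrial ribosome 4 of 77 were called higher (MRPL1, MRPL39, MRPS10 and MRPS35) and MRPL40 lower. Over all genes the shares were 5.58% higher and 5.77% lower, so the higher calls of this list were near the general share. Its median of 0.38 was 0.65 without cell2_LY replicate 2, 0.36 without cell16_LY replicate 1 and 0.08 without cell2_LY replicate 1. Cytosolic ribosomal proteins gave 0 of 78 calls in limma or voom, 4 at an unadjusted p under 0.05 and a median of -0.19.

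The hypoxia list covers HIF1A, which switches glycolysis genes when oxygen is low, its regulators and its targets outside glycolysis. Of 26 tested genes 6 were called higher and 1 lower, beside 5.58% and 5.77% of all genes, with a median of 0.46. Among the regulators, HIF1A measured 28.1 and 18.2 FPKM in cell16_LY, 9.54 and 11.1 in cell2_LY and 11.4 and 23.4 in LY_DMSO (1.13 ± 0.39). ARNT, its partner, was at 3.48 and 2.57 against 1.86 and 1.46, EPAS1 at 0.359 and 0.689 against 0.694 and 0.291, VHL at 5.59 and 2.95 against 2.42 and 3.51, and the prolyl hydroxylase EGLN1 at 19.4 and 13.2 against 22.0 and 25.2, and none of these was called. The HIF1A call was lost without cell16_LY replicate 1, without cell2_LY replicate 1, with scaling by the reads on genes and with only the embryos that had Y reads.

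Among the targets, the mitophagy receptors BNIP3 and BNIP3L were called higher. BNIP3 measured 104 and 41.1 FPKM in cell16_LY, 21.1 and 18.9 in cell2_LY and 29.9 and 38.6 in LY_DMSO (1.71 ± 0.43). BNIP3L measured 70.8 and 52.8, 22.8 and 28.8, and 34.7 and 46.4 (1.26 ± 0.29), and was called under every alternative. The collagen-modifying enzymes P4HA1 (80.4 and 30.5 against 14.5 and 25.4 FPKM) and PLOD2 (7.89 and 2.65 against 1.41 and 2.29) and the MYC antagonist MXI1 (2.26 and 1.45 against 0.935 and 0.569) were called higher as well. In P4HA1, PLOD2 and BNIP3 cell16_LY replicate 1 was far above replicate 2. EGLN3, a prolyl hydroxylase and itself a known HIF target, was the 1 called lower (1.44 and 1.02 against 4.02 and 2.77), a call lost without any 1 of the 4 LY embryos.

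Classical targets did not move as a block. VEGFA, the vessel growth factor, measured 5.73 and 3.70 FPKM against 9.06 and 6.31 in cell2_LY, CA9 3.97 and 2.45 against 1.75 and 2.95, ADM 3.23 and 1.34 against 1.47 and 2.82, and NDRG1 2.32 and 2.21 against 2.25 and 3.21. PDK1, at 17.4 and 11.1 against 10.0 and 10.6, HILPDA, at 7.91 and 2.86 against 2.09 and 1.83, ERO1A, at 91.99 and 57.3 against 28.7 and 55.0, and INSIG2, at 26.2 and 20.6 against 9.55 and 19.0, were higher in both cell16_LY embryos, yet none was called. Groups that did not overlap were found at 54.5% of all tested genes. ANKRD37 had the largest difference of the list, at 3.86 and 2.70 against 2.15 and 0.134 FPKM (2.30, not called). The remaining tested members BHLHE40, ANKZF1, DDIT4, KDM3A, P4HA2 and FAM162A had log2 differences between -0.55 and 0.56. Without cell16_LY replicate 1 the list held 2 genes called higher and 0 lower, without cell2_LY replicate 1 it held 4 and 0, and scaling by the reads on genes gave 2 and 1.

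Trophoblast secreted genes had the highest median of all lists, 1.99 over 8 tested genes of 29 listed, with 4 called higher and 0 lower. The other 21, among them 17 of 20 pregnancy-associated glycoproteins, stayed below the minimum level. Interferon tau is the signal by which the ruminant conceptus maintains pregnancy, and its gene copies are nearly identical, so the split of reads among them is uncertain. IFNT3 measured 462 and 223 FPKM in cell16_LY, 33.6 and 41.1 in cell2_LY and 25.3 and 2.57 in LY_DMSO (3.11 ± 0.87). IFNT2 measured 12.3 and 5.24, 1.25 and 0.887, and 0.833 and 0.646 (2.87 ± 0.65). The copy listed as IFN-TAU was low, at 0.773 and 0.364 against 1.48 and 1.64, and was not called (-1.37). At IFNT3 and IFNT2 both cell16_LY embryos lay above the other 4.

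PAG11, a secreted glycoprotein of the aspartic protease family, measured 22.9 and 20.4 FPKM in cell16_LY, 3.98 and 1.72 in cell2_LY and 0.570 and 0.427 in LY_DMSO (3.02 ± 0.56). The 3 groups did not overlap, in that order. TKDP1, a Kunitz-type protein of the trophoblast, measured 9.75 and 10.1, 4.33 and 2.72, and 0.639 and 1.24 (1.52 ± 0.50), again with the cell2_LY pair between the others. PAG2, the most abundant glycoprotein gene here, overlapped at 49.8 and 73.5 against 14.4 and 90.0 FPKM, as did SSLP1, at 102 and 28.3 against 31.0 and 3.08, and PAG1, under 0.3 FPKM in all 6. IFNT3 and PAG11 were called under every alternative. Without cell16_LY replicate 1 they were the 2 called genes of the list, and without cell2_LY replicate 1 the counts were 5 higher and 1 lower.

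The trophectoderm list of transcription factors and keratins ran the other way, with 0 of 11 genes called higher, 2 lower and a median of -0.73. Beside GATA2, CDX2 was called lower, at 1.14 and 0.860 FPKM against 3.87 and 3.49, with 0.410 and 0.591 in LY_DMSO (-1.84 ± 0.67). CDX2 was not called when any 1 of the 4 LY embryos was left out, and GATA2 was then the 1 called gene without either cell16_LY embryo. GATA3, a close relative of GATA2, measured 36.4 and 28.0 against 36.0 and 46.6 FPKM, and TFAP2C 25.6 and 29.9 against 49.4 and 51.1 (-0.86, not called). The keratins KRT8 (3627 and 3491 against 3029 and 4391 FPKM) and KRT18 (1311 and 1464 against 1828 and 2888) marked trophectoderm in all 6 embryos and were not called. ELF5 had the highest difference, at 1.13 and 0.297 against 0.0618 and 0.112 FPKM (2.45, not called).

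**Figure D3:**
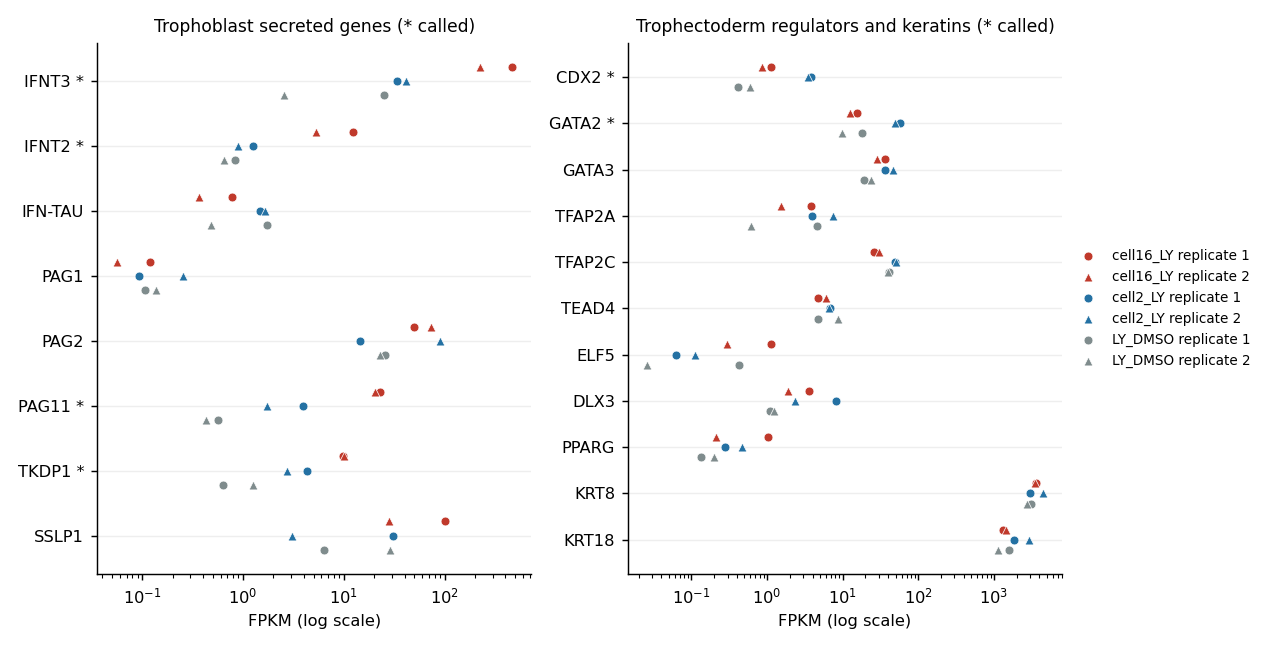
FPKM on a log scale (x) of the tested trophoblast secreted genes (left) and trophectoderm genes (right), 1 point per blastocyst, coloured red for cell16_LY, blue for cell2_LY and grey for LY_DMSO, with circles for replicate 1 and triangles for replicate 2. Red points lead at IFNT3, IFNT2, PAG11 and TKDP1, and blue points lead at GATA2 and CDX2, all starred as called.

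Genes of the inner cell mass lists were read from whole embryos, so their levels do not show which cells held the RNA. POU5F1, the pluripotency factor, measured 242 and 291 FPKM in cell16_LY, 364 and 293 in cell2_LY and 395 and 239.8 in LY_DMSO. Of 9 epiblast genes 2 were called lower, UTF1 (0.596 and 0.788 against 5.66 and 1.42 FPKM) and the DNA methyltransferase DNMT3B (10.2 and 8.86 against 25.1 and 15.4), and the median was -0.31. NANOG had the highest difference, 1.67, through cell2_LY replicate 2 at 1.68 FPKM against 18.6 to 49.6 in the other 5, and was not called. Without either cell16_LY embryo the list held 1 gene lower, and without cell2_LY replicate 1 it held 1 higher and 0 lower. Hypoblast genes gave 0 of 16 calls in limma and in voom, 1 of them, GATA6 (38.2 and 54.8 against 88.5 and 91.7 FPKM), with a p under 0.05. Their median of 0.11 turned with scaling by the reads on genes (-0.10) and with quantile normalization (-0.15). It also turned without cell16_LY replicate 2 (-0.04) or cell2_LY replicate 2 (-0.14). Leaving out 1 embryo gave at most 2 called higher and 1 lower. Genes of pumping and junctions split. The sodium pump subunit ATP1B1 (6.47 and 5.50 against 0.902 and 2.09 FPKM) and the cadherin CDH1 (114 and 129 against 35.3 and 73.9) were called higher, and the junction proteins CGN (8.40 and 10.97 against 23.7 and 19.1) and DSP (4.07 and 2.33 against 10.6 and 6.01) lower. None of these 4 was called without cell2_LY replicate 1, and without either cell16_LY embryo 1 was called in each direction. Cumulus and fibroblast markers (0 of 7) and oocyte markers (0 of 3) gave no call in limma or voom and 0 at an unadjusted p under 0.05, while without cell16_LY replicate 2 the former held 1 call in each direction. Summed, the former came to 98.8 and 31.4 FPKM in cell16_LY, 49.7 and 32.2 in cell2_LY and 20.7 and 35.4 in LY_DMSO, and 8 of 15 were below the minimum level.

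Retinoid genes are of interest because LY acts on a retinoic acid receptor. RARB, a receptor gene and a known target of retinoic acid, measured 2.81 and 2.23 FPKM in cell16_LY, 0.379 and 0.685 in cell2_LY and 3.38 and 5.32 in LY_DMSO (2.25 ± 0.48), and was called higher under every alternative. The cell2_LY pair was the lowest, and both cell16_LY embryos lay below both LY_DMSO embryos. The partner receptors RXRA (0.114 and 0.100 against 0.627 and 0.578 FPKM, -2.37 ± 0.73) and RXRB (1.04 and 1.95 against 4.95 and 2.78) were called lower, with LY_DMSO at 0.170 and 0.192 and at 1.39 and 0.875. RARA overlapped at 0.326 and 0.211 against 0.519 and 0.313 FPKM. These were the 4 tested receptor genes, and the other 2 of 6 listed stayed below the minimum level. RARG, the gene of the γ receptor that LY blocks, was thus not among those compared. The binding protein CRABP1 was called lower (0.854 and 0.742 against 2.55 and 3.83) while CRABP2 had the largest difference, 2.37, not called. The CRABP1 call was lost when any single LY embryo was left out, with voom, with quantile normalization and without the filter. Of the 14 tested genes of the list 1 was called higher and 3 lower, and without any 1 of cell16_LY replicate 1, cell16_LY replicate 2 and cell2_LY replicate 1 it was 1 and 1. Without cell2_LY replicate 2 it was 3 and 2. The median of 0.10 changed sign with scaling by the reads on genes (-0.11) and with quantile normalization (-0.01). It also did so without cell16_LY replicate 1 (-0.17), without cell2_LY replicate 1 (-0.22) and with only the embryos that had Y reads (-0.17). Of 39 HOX genes, many of which answer to retinoic acid, 14 reached the minimum level. HOXA13 was the 1 called higher, at 0.0885 and 0.322 against 0.0104 and 0.0094 FPKM, and 0 were called lower. It was not called without cell16_LY replicate 2 or cell2_LY replicate 2, and without cell2_LY replicate 1 the list held 2 higher and 1 lower.

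The signalling lists are read beside the 5.77% of all genes called lower and 5.58% called higher. In the Wnt pathway 5 of 32 genes were called lower and the receptor FZD6 was called higher, with a median of -0.42. The lower genes were the ligand WNT6 (4.71 and 3.23 against 11.7 and 8.55 FPKM), the signal carriers DVL2 and DVL3, AXIN1, which restrains the signal, and the nuclear repressor TCF7L1. All 6 calls were lost without cell16_LY replicate 2 and without cell2_LY replicate 1, 2 lower calls were left without cell16_LY replicate 1, and 8 genes were lower without either LY_DMSO embryo. In the Notch pathway HES1, RFNG and DTX2 were called lower among 22, and 0 were without either cell16_LY embryo or cell2_LY replicate 1, against 5 lower and 1 higher without cell2_LY replicate 2. In the ErbB and MAPK list JUN (2.44 and 3.88 against 8.88 and 8.12 FPKM) and ETV4 were called lower among 35, and the count was 0 without cell16_LY replicate 1, 1 without cell16_LY replicate 2 and 4 without either cell2_LY embryo, with 3 called higher as well without cell2_LY replicate 2. Of p53 targets 0 of 13 were called in limma, with CDKN1A the 1 gene at an unadjusted p under 0.05. In the integrated stress response SESN2 (4.06 and 3.37 against 8.53 and 9.32 FPKM) was the 1 called of 18. The median of that list, -0.48, was 0.07 without cell16_LY replicate 1, and 5 and 4 genes were called lower without cell16_LY replicate 2 and without cell2_LY replicate 2.

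Most lipid synthesis genes were not called, and most of their calls were lower. Over all genes 5.77% were called lower and 5.58% higher. Of 22 cholesterol genes 4 were called lower and 0 higher, with a median of -0.29. SREBF2, the master regulator of the pathway, measured 1.35 and 1.83 FPKM in cell16_LY, 7.46 and 4.93 in cell2_LY and 2.26 and 1.56 in LY_DMSO (-1.94 ± 0.39). The synthesis enzymes MVD and LSS were also called lower, while MSMO1 had the highest difference (0.96, not called). Of 22 genes of fatty acid synthesis and storage 4 were called lower and 1 higher. FADS2, the delta-6 desaturase, measured 1.34 and 0.918, 5.51 and 3.87, and 0.944 and 0.556 (-2.05 ± 0.40), and FADS1, FASN and ACACA were also called lower, against HACD3 higher. At SREBF2 and FADS2 the cell2_LY pair was above the other 4 embryos, and both were called under every alternative. Without cell2_LY replicate 2 the cholesterol counts were 2 lower and 5 higher and the median was 0.07. Without cell16_LY replicate 1 the fatty acid counts were 2 lower and 0 higher.

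Autophagy genes were called in both directions, 5 of 31 each way. This list and the actin, heat shock and chaperone lists are read beside the 5.58% of all genes called higher and 5.77% called lower. The conjugation genes ATG12, ATG4A, ATG4C and MAP1LC3B and the lysosomal LAMP2 (302 and 213 against 78.7 and 144 FPKM) were higher. The initiation and membrane genes ULK1, ATG2A and ATG9B, ATG16L1, and the lysosome regulator TFEB (0.910 and 1.20 against 3.32 and 3.05) were lower. Without cell2_LY replicate 1 this was 1 higher and 2 lower, without cell16_LY replicate 1 it was 3 and 1, and without cell16_LY replicate 2 it was 3 and 5. Actin and adhesion genes also split, with 5 of 28 lower, ZYX, PXN, FLNA and ACTN4 among them, and 3 higher (CNN3, PLS3 and TPM3). PLS3, an actin-bundling protein, measured 9.51 and 11.8 FPKM in cell16_LY, 1.86 and 2.85 in cell2_LY and 7.49 and 20.9 in LY_DMSO. Of the heat shock genes HSPD1 and CRYAB (11.1 and 11.5 against 0.939 and 0.424 FPKM, with 0 reads in LY_DMSO replicate 1) were called higher among 12. CRYAB was not called when any single LY embryo was left out or with a pseudocount of 0.5. HSPD1 was not called without cell16_LY replicate 2 or cell2_LY replicate 1. Of the endoplasmic reticulum chaperones DNAJB9 was the 1 called higher among 20. It was not called without cell16_LY replicate 1 or cell2_LY replicate 1, and 3 genes were called without cell2_LY replicate 2.

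Replication and division genes are read beside the 5.58% of all genes called higher. MCM6, PRIM1 and RFC3 were called higher among 25 replication genes, and PLK1 among 20 mitosis genes, all 20 of which had a positive difference (median 0.48). Without cell2_LY replicate 1 there was 1 replication gene higher, and without cell2_LY replicate 2 there were 5 higher and 4 lower. PLK1 was not called without cell16_LY replicate 1, cell2_LY replicate 1 or either LY_DMSO embryo. The mitosis median was 0.16 without cell2_LY replicate 1 and 0.92 without cell2_LY replicate 2. Of 9 interferon-stimulated genes IFIH1 and USP18 (12.5 and 4.21 against 0.893 and 1.61 FPKM) were called higher, and 0 were without cell16_LY replicate 1 and 1 without cell2_LY replicate 1. Of 4 genes of genome activation 0 were called in limma or voom, and 0 had an unadjusted p under 0.05. DUXA had 0 reads in both cell16_LY embryos, where a count of 0 allows up to 3 reads, and measured 2.09 and 0.0756 FPKM in cell2_LY and 24.4 and 3.40 in LY_DMSO.

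**Figure D4:**
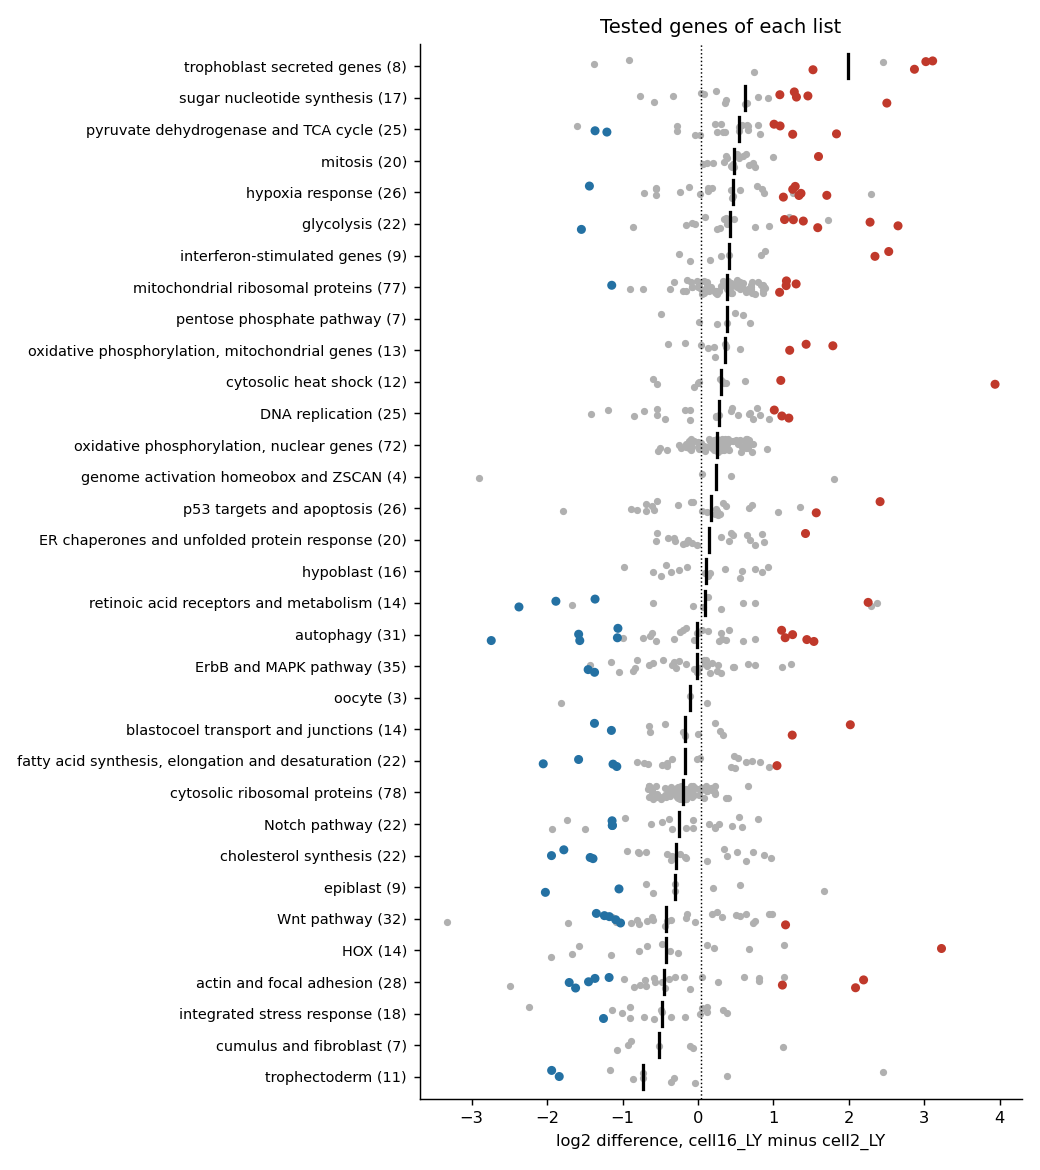
Log2 difference of cell16_LY minus cell2_LY (x) for the tested genes of 33 lists (y, number tested in brackets), ordered by the list median (black bar), with the median of all genes as a dotted line at 0.04. Called genes are red (higher) or blue (lower) and the others grey, and trophoblast secreted genes stand at the top while trophectoderm genes stand at the bottom.

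Position in the genome went along with the calls. Of 508 tested genes on the X chromosome 101 were called higher (19.9%, against 5.58% of all genes) and 3 lower, FLNA among the latter. PGK1, PDK3, IDH3G, ATG4A, LAMP2 and PLS3 are among the X genes called higher. The median log2 difference of X genes was 0.62. By embryo, the median X gene lay 0.46 above its 6-embryo mean in cell16_LY replicate 1 and 0.48 above in LY_DMSO replicate 2, the 2 embryos without Y reads. It lay at -0.01 in cell16_LY replicate 2, -0.26 and -0.42 in the cell2_LY pair and -0.09 in LY_DMSO replicate 1. Without cell16_LY replicate 1, 37 X genes (7.28%) were called higher against 2.82% of all genes, and with only the 4 embryos that had Y reads 27 (5.31%) against 2.22%. XIST, the RNA that silences an X chromosome, measured 11.9 and 2.10 FPKM in cell16_LY, 17.7 and 0.267 in cell2_LY and 13.7 and 29.0 in LY_DMSO, so it did not follow the Y reads. The part of sex-chromosome content in the differences of X genes was not tested. Without X and Y genes 721 genes were higher and 846 lower.

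Among autosomes, the called shares ran from 2.56% (chromosome 23) to 8.73% (chromosome 6) higher and from 1.82% (chromosome 9) to 10.3% (chromosome 29) lower. Gene length also went along with the differences. With the genes split by length into 4 groups of like size, the shortest (median length 1145 bases) had 6.47% called higher and 2.31% lower, and the longest (8752 bases) had 3.001% and 8.43%. In cell2_LY replicate 1 the median gene lay 0.29 below its 6-embryo mean in the shortest group and 0.22 above it in the longest, while in the other 5 embryos these medians were between -0.07 and 0.16. With the length trend removed from each library, 796 genes were higher and 775 lower, and 644 and 682 of these were called before. Whether RNA quality or amplification had a part in this was not tested.

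**Figure D5:**
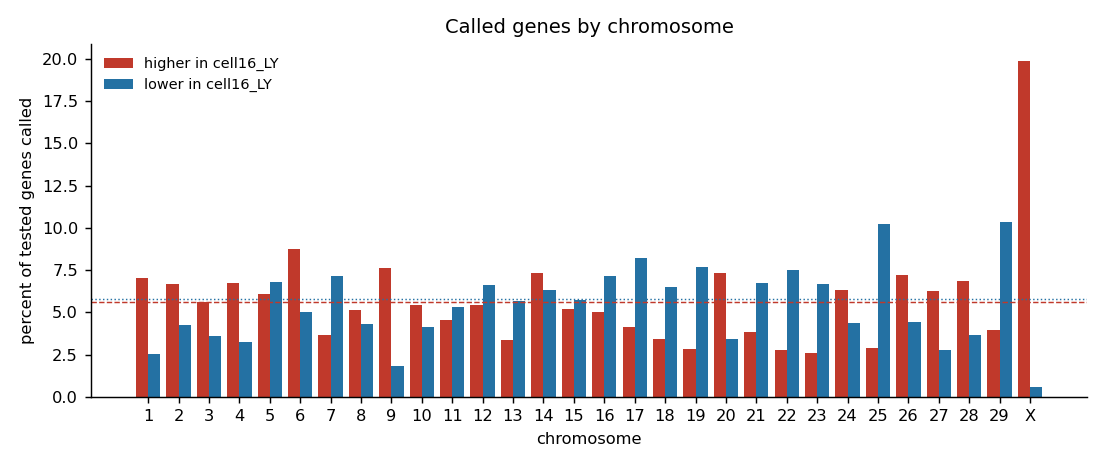
Percent of tested genes called higher (red bars) and lower (blue bars) in cell16_LY on each autosome and on X, with the shares over all genes as dashed (5.58%) and dotted (5.77%) lines. The X chromosome stands apart at 19.9% higher, and chromosomes 25 and 29 have the tallest blue bars.

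The vehicle embryos help to place the differences. LY_DMSO lay nearer to cell16_LY than to cell2_LY for 670 of the 810 higher genes (82.7%) and 635 of the 839 lower genes (75.7%), against 66.3% of all genes tested. Over the higher genes the median log2 difference was 0.09 for cell16_LY minus LY_DMSO and -1.26 for cell2_LY minus LY_DMSO, and over the lower genes it was -0.29 and 1.16. Both differences use the same LY_DMSO embryos, and their medians over all tested genes were -0.01 and 0.00. The called genes were chosen for a cell16_LY minus cell2_LY difference beyond 1. A gap of over 1 between the medians of each set was thus fixed by that choice. Without cell2_LY replicate 1, LY_DMSO was nearer to cell16_LY for 84.4% of the higher genes and 68.7% of the lower genes then called, against 64.1% of all. TPI1, GAPDH, ENO1, IFNT3, IFNT2, PAG11 and TKDP1 were among the exceptions, with cell2_LY nearer to LY_DMSO and cell16_LY above both.

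A separate table of the series holds 3 blastocysts exposed to 10 μM LY from the 2-cell stage (LY10) and 3 DMSO blastocysts, none shared with the embryos above. Over 13019 genes tested in both tables, LY10 minus DMSO was set beside cell16_LY minus cell2_LY. The Spearman correlation across genes was -0.0761, a description over genes that are not independent. LY from the 2-cell stage is the first term of LY10 minus DMSO and the subtracted term of cell16_LY minus cell2_LY. An effect of it present in both would thus show opposite signs. Cell2_LY minus LY_DMSO, the closer counterpart of LY10 minus DMSO, was not compared with it. The genes called higher in cell16_LY had a median LY10 minus DMSO difference of 0.00, and those called lower one of 0.11, beside 0.00 over all. For single genes the log2 differences of LY10 minus DMSO were -1.05 at TPI1, 0.33 at PGK1, -0.17 at LDHA, 0.98 at GAPDH, 1.22 at ENO1, -1.32 at IFNT3, -0.38 at GATA2 and -0.56 at RARB.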

How the data were processed

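Single-blastocyst SMART-Seq libraries were sequenced as paired reads. The authors trimmed the reads with fastp, and their methods name both STAR and HISAT2 2.0.5 for alignment, featureCounts 1.5.0-p3 for counting and DESeq2 1.20.0 for their fold changes and p-values, which were not used here. The genome build is not given in the sources used here. The deposited values are FPKM. Multiplied by gene length they gave whole reads for 100% of values within 0.02 reads, and the implied library size equals median-of-ratios size factors times the geometric mean depth, so that alternative changed nothing. Reads were scaled to the geometric mean library size, 15246235, and limma 3.58.1 was run on genes whose mean reached 10 (lmFit, eBayes with trend, R 4.3.3), on log2(normalized count + 1), with cell16_LY, cell2_LY and LY_DMSO in 1 fit. Calls used an unadjusted p under 0.05 and a log2 difference beyond 1. Voom on the recovered reads was an alternative.

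Named genes were TPI1, PGK1 and LDHA, the 10 smallest p each way among symbols whose mean reached 50 and whose groups do not overlap, 2 uncharacterized loci in each direction, all members of the glycolysis, pentose phosphate, hypoxia and trophoblast secreted lists, and the called and extreme members of other lists. Some genes that these rules name are not reported here. Examples with values beyond these (GATA3, TFAP2C, KRT8, KRT18, POU5F1, RARA, CDKN1A and XIST) were picked with their values in view. The comparison and the lists were chosen with earlier results of these data known. Sequences are not printed. Tables and figures used Python 3.11.15, pandas 2.3.3, numpy 2.4.6 and matplotlib 3.10.9.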

Additional observations from a re-analysis of the deposited data

How the results depend on the processing

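The labels do not pair the embryos, since replicate numbers only name them and nothing says that they mark a shared batch. With the replicate block 830 genes were higher and 802 lower, with 0 after adjustment, and the deviations of same-numbered embryos of cell16_LY and cell2_LY correlated at -0.13, so the numbers were not taken to pair embryos. With the numbers of cell16_LY crossed, an alternative chosen after seeing the data, the replicate block gave 921 higher, 970 lower and 1 after adjustment.
Leaving out 1 embryo at a time gave between 409 and 1627 higher genes, between 390 and 1289 lower genes and 0 after adjustment each time. On log2(FPKM + 1) 540 were higher and 418 lower. With the reads on genes as library size 421 were higher and 1261 lower. With only the embryos that had Y reads, chosen after seeing the data, 323 were higher and 345 lower. The last fit and those without an embryo rest on fewer samples, and the reads on genes shifted the median of all genes to -0.18. Other causes of these moves were not tested. The other alternatives (a pseudocount of 0.5 or 5, genes left unfiltered or kept from a mean of 50 up, quantile normalization, voom, a fit of only the 2 groups, X and Y genes left out, length trend removed) left both counts within 1.5 times. Each embryo had 11336091 or more reads on genes, and how depth limits the calls was not tested.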
